A study of Mus musculus with 12 samples.

Results

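The 29 genes described here encode proteins of the cytosolic small (40S) ribosomal subunit: Rpsa, Fau and 27 genes named Rps, among them the paralog Rps27l and Rps3a, which stands in the tables as Rps3a1. They were chosen by symbol, were found in both deposited tables, and make up 29 of the 23420 gene rows of each table. The measurements were made in R1 cells, an established mouse embryonic stem cell line, kept on gelatin in serum and LIF (leukaemia inhibitory factor). Transfection with control siRNAs or with siRNAs that target Krr1, which helps to assemble the small subunit, lasted 48 h. Each lysate gave an RNA-seq library of rRNA-depleted fragments of 40 to 60 nt and a ribosome profiling library of footprints (RPF, the fragments of mRNA protected by a ribosome) of about 30 nt. The 3 control libraries of each assay carry the names siGFP, siNC and Lipo. Those of the knockdown are siKrr1 A, C and D, after column letters that could not be matched to the numbered GEO titles. Library values below stand in this order, first siGFP, siNC, Lipo and then siKrr1 A, C, D. The cells were transfected with 3 different Krr1 siRNAs, so the spread among the knockdown libraries may include differences between siRNAs. The name Lipo states no siRNA, although the labels speak of 3 control siRNAs. The labels do not say whether the lysates came from separate cultures, so p-values measure the spread between these samples, which may be technical.

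Ribosomal proteins of the small subunit bind the 18S rRNA while it is transcribed and processed in the nucleolus, and Krr1 belongs to the processome, the particle in which this assembly begins. The finished subunit has a body and platform, which hold most of the decoding site and the mRNA entry and exit, and a head, which swivels on the body during translocation. Messenger RNAs of ribosomal proteins start with a C followed by a run of pyrimidines (a 5-prime terminal oligopyrimidine or TOP tract), through which their translation responds to mTOR and the RNA-binding protein LARP1. Most mammalian ribosomal protein genes also have processed pseudogenes, intronless copies elsewhere in the genome, and a short read that matches a gene and its copy alike has no unique place.

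The sequences around the annotated transcription start are shown for some members that have a pyrimidine run there. Rps7, Rps3a1, Rps13, Rps16 and Rpsa, also described below, had no such run. Each is 30 bases from RefSeq (GRCm38.p6, the build also named mm10), 15 before and 15 from the start on. Capitals mark a run of at least 5 letters C or T that opens with C and begins within 5 bases of the annotated start. Where more than 1 C could open it, the mark begins at the C nearest that start. Pyrimidines lie directly before the mark in Fau, Rps27, Rps24 and Rps9, so their full stretches are longer. Rps2, Rps24 and Rps27l are the members whose footprints passed the test, and Rps27 is the paralog of Rps27l. Rps9 had one of the most negative log2 differences in RNA among the well-counted members, and Fau has the longest marked run of the list.
Rps2, chr17:24720048-24720077, + strand: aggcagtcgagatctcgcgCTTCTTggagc
Rps24, chr14:24490663-24490692, + strand: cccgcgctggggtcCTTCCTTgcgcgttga
Rps27l, chr9:66946071-66946100, + strand: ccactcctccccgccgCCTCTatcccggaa
Rps27, chr3:90213634-90213663, - strand: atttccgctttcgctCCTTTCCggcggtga
Rps9, chr7:3704026-3704055, + strand: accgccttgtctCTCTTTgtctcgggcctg
Fau, chr19:6057932-6057961, + strand: tgcgcgcccccacttCTTCCTCTTTCTTga
The marked run was 13 letters long in Fau, 7 in Rps24 and Rps27, 6 in Rps2 and Rps9 and 5 in Rps27l. Relative to the annotated start the mark opened at 4 in Rps2, 1 in Rps27l, -1 in Rps24, -3 in Rps9 and 0 in Rps27 and Fau. A run shown here is therefore not always a TOP tract of the annotated mRNA. Of 25 members with an entry in the table, 13 (52.0%) had such a run in at least 1 annotated start, against 21.2% of 27025 genes and 47.2% of 36 large-subunit genes. The letters CCGGAA or, on the other strand, TTCCGG, the core bound by ETS factors, were present somewhere in the 300-base window (250 before and 50 after the start) of 14 members (56.0%), against 16.7% of all genes and 52.8% of the large-subunit genes. The letters TTCC of that core can belong to a pyrimidine run as well, as they do at the start of Rps27. The unmatched members were Rps14, Rps20, Rps27a and Rps29. These matches describe the annotated starts, which need not be the starts used in these cells.

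The targeted gene and the cell identity were checked first. Krr1 RNA was 156, 149 and 159 CPM (counts scaled to 1000000 gene counts) in controls against 33.5, 57.5 and 67.0 in knockdown, so it was lowest in siKrr1 A. Reads on genes numbered 31318772 to 39670139 per RNA library and 21615934 to 28911254 per footprint library. The 12 embryonic stem cell markers, among them Pou5f1, Sox2 and Nanog, summed to 9026 to 9079.9 CPM of RNA in controls and 7748 to 8683 in knockdown libraries, and 4 of them were called lower in RNA. The 12 fibroblast and feeder markers without Vim, which stem cells also express, summed to 18.9 to 27.6 CPM of RNA (with Vim 306 to 322 in controls and 256 to 388 in knockdown), 0 of 8 tested were called with edgeR, and Col3a1, Lum and Postn were at 0 counts in the 6 RNA libraries. A level is a share of its library, so fewer ribosomal protein mRNAs per cell and more of other RNAs cannot be told apart.

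Together the 29 genes took 0.983%, 0.994% and 1.01% of RNA gene counts in controls against 1.00%, 0.926% and 0.859% in knockdown. The share in siKrr1 A lay within the control range, and those in siKrr1 C and D lay below it. In footprints they took 0.643%, 0.597% and 0.612% in controls against 0.668%, 0.690% and 0.582% in knockdown, with siKrr1 A and C above the controls and siKrr1 D below them. A single gene, Rps3, which lines the mRNA entry of the 40S head, held much of these sums at 3522 ± 139 CPM of RNA and 1902 ± 64.1 CPM of footprints in controls (SD, n = 3).

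The tables count unique alignments, and this bears on the list. RefSeq names 108 pseudogenes after these genes, from 0 for 8 of the members to 23 for Rps12, and 3 of them have a row of their own in the tables. Copies under symbols of another form were not counted. Members were seen at very different depth: Rps3 had 115181 to 142910 counts per RNA library, Rps28 72 to 117 and Rps27 109 to 184. In footprints the counts ran from 5 to 20 per library for Rps23 to 43416 to 51383 for Rps3. All 29 members passed the filter on low counts in both assays, 28 had at least 100 counts in every RNA library and 20 in every footprint library. Because no transcript or coding lengths came with the files, levels are not compared between genes, and a level is the level of the uniquely alignable part of a gene.

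Within the controls, the RNA library siGFP stood apart for part of the list. Rps3a1, whose protein lies on the platform where eIF3 binds, had RNA levels of 57.7, 25.2 and 28.6 CPM in controls against 30.1, 18.5 and 22.4 CPM in knockdown. Rps16, a head protein whose tail reaches the decoding site, had 142, 74.5 and 75.8 CPM in controls against 82.7, 55.2 and 69.2 CPM in knockdown. In both genes siGFP was the highest of the 6 libraries and the other 2 controls lay close to each other. Of the 27 members with a control mean of at least 10 CPM, 7 lay more than 0.5 (log2) above the mean of the other controls in siGFP and 1 lay as far below, a share of 25.9% above, against 0.435% of all 8739 genes at that level and 4 of 42 large-subunit genes. Those above were Rps3a1, Rps16, Rps13, Rps10, Rps29, Rps27a and Rpsa, and the 1 below was Rps6. In footprints 0 of the 18 members with a control mean of at least 10 CPM there departed as far in siGFP, siNC or Lipo. Of the genes just named, only Rps16 and Rps10 reached that level in footprints. The others, with fewer footprint counts, deviated in siGFP from -0.40 (Rps13) to 0.37 (Rps29) in footprints (log2). RNA results of these 8 genes are therefore given below with and without siGFP. The cause of the departure was not tested.

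**Figure D1:**
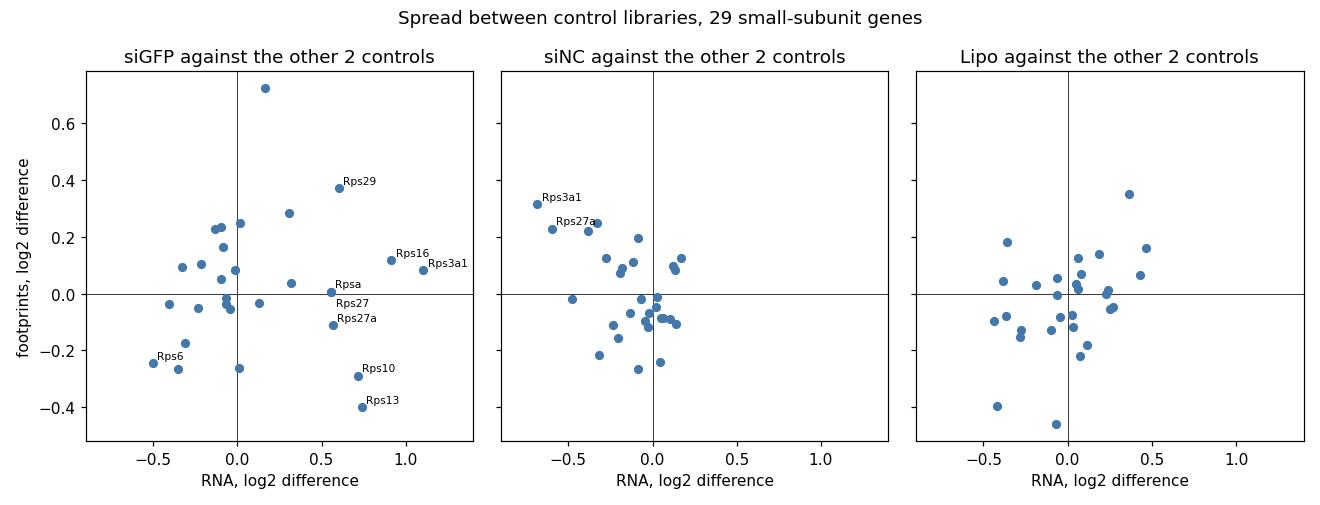
Each of the 3 panels sets 1 control library against the mean of the other 2 controls, with the log2 difference in RNA on the horizontal and in footprints on the vertical axis, 1 point per gene. In the siGFP panel Rps3a1, Rps16, Rps13 and Rps10 lie far to the right, while in the Lipo panel all 29 genes lie between -0.5 and 0.5 in RNA.

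The main comparison asked whether these genes changed in footprints after Krr1 knockdown. The test was passed by 3 members, and they went in different directions. Rps2 fell, and Rps24 and Rps27l rose (edgeR quasi-likelihood test on all genes, Benjamini-Hochberg adjusted p under 0.05). Among the 13287 genes tested in footprints 3.39% were called higher and 2.68% lower, which for 29 genes amounts to about 1 in each direction. DESeq2 called 2 higher and 3 lower of 28, beside 4.93% and 4.11% of its genes. The groups did not overlap in either direction for 11 members, 5 higher (Rps4x, Rps10, Rps24, Rps27 and Rps27l) and 6 lower (Rps2, Rps6, Rps9, Rps12, Rps20 and Rps29) in knockdown, where 17.7% of all genes were higher and 10.6% lower in that way.

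Rps2 (chromosome 17, 24718121 to 24721927, GRCm38) encodes a body protein that lines the mRNA entry channel and that is ubiquitinated by Rnf10 on stalled initiation complexes. Its footprints were 88.5, 89.0 and 92.2 CPM in controls against 75.8, 63.4 and 53.1 CPM in knockdown. The controls lay within a few CPM of each other, the 3 knockdown libraries all lay below them, and siKrr1 D was lowest. The group means were 89.9 ± 2.00 and 64.1 ± 11.4 CPM (SD, n = 3), a log2 difference of -0.52 ± 0.11 (SE; edgeR adjusted p = 0.0215). Its RNA was 273, 249 and 249.7 CPM in controls against 265, 244 and 195 CPM in knockdown, with siKrr1 C and D below the controls and siKrr1 A within their range, and the log2 difference in RNA was -0.15 ± 0.11 (edgeR adjusted p = 0.505). The Rps2 span overlaps the small RNA host Snhg9 and the snoRNA genes Snora64 and Snora78 in RefSeq, and no source used here gives the strand setting of the counting. Rps2 is not alone in this. The spans of Rpsa, Rps3, Rps3a1, Rps10, Rps12, Rps13, Rps16, Rps20, Rps21, Rps25 and Rps27a also overlap other annotated genes. The part of these overlaps in the counts was not tested.

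Rps24 (chromosome 14, 24490678 to 24496960), a body protein whose gene is mutated in some families with Diamond-Blackfan anaemia, had footprints of 783, 719.9 and 750.1 CPM in controls against 875, 1065 and 926 CPM in knockdown. All 3 knockdown libraries exceeded all 3 controls, with siKrr1 C highest. The means were 751 ± 31.8 and 955 ± 98.5 CPM, a log2 difference of 0.32 ± 0.07 (edgeR adjusted p = 0.0293). Its RNA was 142, 174 and 184 CPM in controls against 157, 159.8 and 146 CPM in knockdown, so the knockdown values lay within the control range, and the log2 difference was -0.13 ± 0.10 (edgeR adjusted p = 0.509).

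Rps27l (chromosome 9, 66944624 to 66949522), a paralog of Rps27 known as a p53 target, had footprints of 196, 175 and 159 CPM in controls against 232, 269 and 216 CPM in knockdown, higher in each knockdown library than in each control. The means were 176 ± 18.6 and 239 ± 26.8 CPM, a log2 difference of 0.41 ± 0.09 (edgeR adjusted p = 0.0291). Its RNA was 396, 419 and 429 CPM in controls against 586, 449 and 484 CPM in knockdown, again without overlap and highest in siKrr1 A. The RNA means were 415 ± 17.1 and 506 ± 71.5 CPM, and the log2 difference of 0.27 ± 0.10 did not pass the test (edgeR adjusted p = 0.150). It was the largest positive difference of the list in RNA, and it was 0.14 without siKrr1 A. Of the 30 p53 target genes of a list chosen with earlier results known, 18 were called higher and 1 lower in RNA, and in footprints 17 of 29 tested were higher and 0 lower. The median of that list lay 0.83, 0.27 and 0.63 (log2) above the control mean in RNA of the 3 knockdown libraries and 0.85, 0.31 and 0.68 in footprints, lowest in siKrr1 C in both. Among the knockdown libraries Rps27l was lowest in siKrr1 C in RNA and highest there in footprints. The part of p53 in the Rps27l values was not tested.

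These 3 calls did not all hold when a control was left out. Without siNC the edgeR adjusted p was 0.0767 for Rps2, 0.130 for Rps24 and 0.11 for Rps27l, and without Lipo it was 0.106, 0.132 and 0.149. Without siGFP Rps27l kept its call, whereas Rps2 (0.0826) and Rps24 (0.0800) lost theirs. All 3 were called without siKrr1 A, C or D, and the log2 difference over all 6 fits with a library left out ran from -0.66 to -0.39 for Rps2, from 0.23 to 0.37 for Rps24 and from 0.31 to 0.49 for Rps27l.

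**Figure D2:**
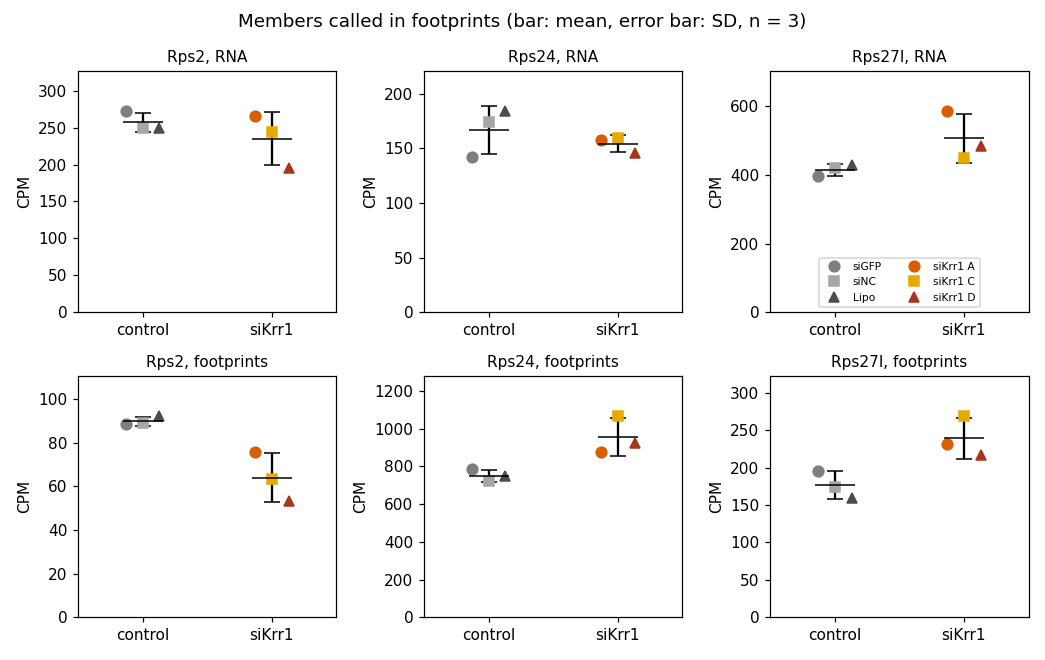
CPM of Rps2, Rps24 and Rps27l in RNA (top row) and footprints (bottom row), 1 point per library, with the mean as a bar and the SD of 3 libraries as the error bar. In footprints the 3 siKrr1 libraries lie below the controls for Rps2 and above them for Rps24 and Rps27l, and in RNA the groups overlap for Rps2 and Rps24.

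Rps27 (chromosome 3, 90212667 to 90213648), the zinc-binding platform protein of which Rps27l is the paralog, had few unique reads, 184, 136 and 113 in RNA of the controls against 126, 127 and 109 in knockdown. The RNA level was 4.85, 3.43 and 3.16 CPM in controls against 4.02, 3.37 and 2.98 CPM in knockdown, so siGFP was highest. Its footprint counts were 30, 39 and 32 in controls and 45, 47 and 47 in knockdown. The footprint counts are too few for a precise level. Scaled to library size, Rps27 footprints were 1.34, 1.39 and 1.29 CPM in controls against 2.08, 1.98 and 1.63 CPM in knockdown, with no overlap of the groups and a log2 difference of 0.46 ± 0.25 (edgeR adjusted p = 0.304), the largest positive one of the list, with a wide error. Rps27 RNA stood at -0.16 ± 0.21 (edgeR adjusted p = 0.727) and at 0.05 without siGFP. The log2 ratio of Rps27l to Rps27 counts in RNA was 6.35, 6.93 and 7.09 in controls against 7.19, 7.06 and 7.34 in knockdown, a difference of 0.40 with p = 0.200 in a two-sided exact permutation test, which cannot go below 0.100 with 3 against 3 libraries. In footprints the difference was -0.05 (p = 0.700, the same exact test).

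In RNA 0 of 29 members passed the test with edgeR, where 2.69% of 14038 genes were called higher and 2.11% lower. At an unadjusted p under 0.05 there were 7 lower members and 1 higher, against 9.83% lower and 11.1% higher over all genes, and DESeq2 called 3 lower (Rps9, Rps13 and Rps20) and 0 higher, where it called 4.08% of its genes lower and 5.14% higher. The log2 difference was below 0 for 25 of 29 members and above 0 for 4, against 50.2% and 49.8% of all genes tested, with a median of -0.14 beside -0.00 for all genes, and the differences ran from -0.67 to 0.27. In footprints it was below 0 for 16 of 29 and above 0 for 13, against 48.5% and 51.5%, with a median of -0.04 beside 0.01. Without overlap in RNA were 3 members lower and 1 higher, against 12.1% and 15% of all genes.

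**Figure D3:**
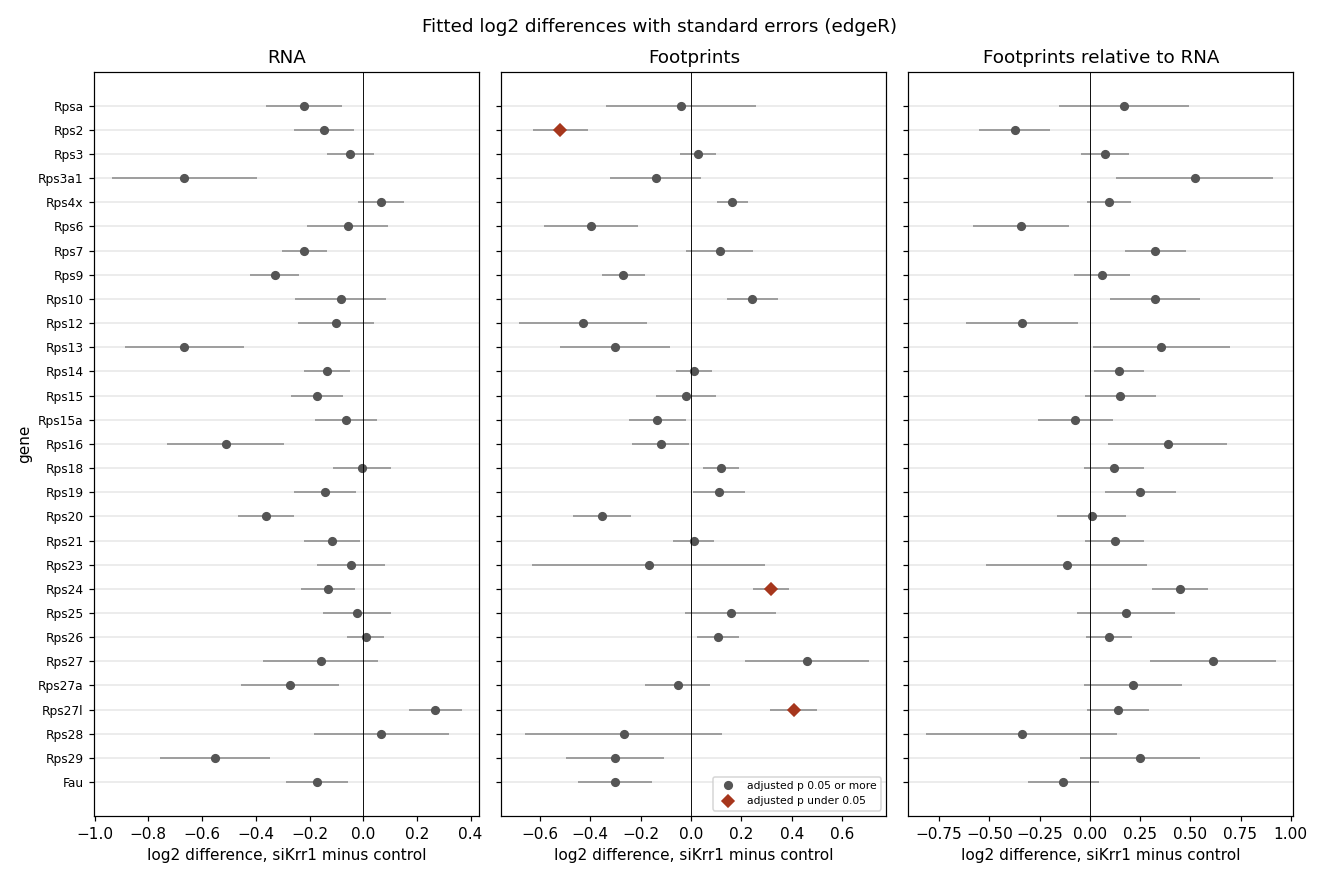
Fitted log2 difference between siKrr1 and control with its standard error for each of the 29 genes in RNA, in footprints and in footprints relative to RNA. Red diamonds mark an adjusted p under 0.05, which Rps2, Rps24 and Rps27l reach in footprints. Most RNA values lie left of 0 and most of the relative values right of it.

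The members whose RNA was lower in each knockdown library than in each control were Rps9, Rps20 and Rps7, and none of them passed the test. Rps9, a body protein at the mRNA entry, had RNA levels of 1038, 1112 and 1095 CPM in controls against 979, 813 and 823 CPM in knockdown. All knockdown values lay below all controls, and siKrr1 C and D were lowest. The log2 difference was -0.33 ± 0.09 (edgeR adjusted p = 0.0616; 0.0263 without siKrr1 A). Its footprints were 999.7, 892 and 895 CPM in controls against 815, 859.8 and 684 CPM in knockdown and also did not overlap, with a log2 difference of -0.27 ± 0.09 (edgeR adjusted p = 0.0918). Rps20, a head protein ubiquitinated by Zfp598 when ribosomes collide, had RNA levels of 1013, 800.2 and 841 CPM in controls against 750.1, 709.7 and 628 CPM in knockdown. Its knockdown values again lay below the controls, with siKrr1 D lowest and siGFP highest. The difference was -0.36 ± 0.10 in RNA (edgeR adjusted p = 0.0692) and -0.35 ± 0.11 in footprints (edgeR adjusted p = 0.0967), where the libraries stood at 98.7, 80.5 and 81.6 CPM in controls against 76.0, 74.5 and 57.9 CPM in knockdown. Rps7, a body protein that can bind Mdm2, had RNA levels of 216, 207 and 223 CPM in controls against 206, 181 and 175 CPM in knockdown, with siKrr1 A just under the lowest control, and its log2 difference was -0.22 ± 0.08 (edgeR adjusted p = 0.159). The log2 difference of Rps7 footprints was 0.11.

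The most negative RNA differences belonged to Rps3a1, Rps13, Rps29 and Rps16, and the size of each moved with siGFP. Rps13, a protein of the body, had RNA levels of 22.1, 13.2 and 13.3 CPM in controls against 13.4, 8.10 and 9.55 CPM in knockdown, with siKrr1 A close to siNC and Lipo. Its difference was -0.67 ± 0.22 (edgeR adjusted p = 0.115) and -0.38 without siGFP. Rps3a1 stood at -0.67 ± 0.27 (edgeR adjusted p = 0.184) and at -0.20 without siGFP. Rps29, a zinc-binding head protein, had RNA levels of 16.9, 11.1 and 11.2 CPM in controls against 11.5, 8.33 and 7.25 CPM in knockdown, a difference of -0.55 ± 0.20 (edgeR adjusted p = 0.150) and of -0.32 without siGFP. In each of these genes the difference was closer to 0 without siGFP, and so it was in Rps16, at -0.51 ± 0.22 with it and -0.14 without. This follows from siGFP being the highest control in all 4 genes. Without siNC the differences were -0.87 (Rps3a1), -0.78 (Rps13), -0.65 (Rps29) and -0.66 (Rps16). Rpsa and Rps10, also high in siGFP, stood at -0.22 and -0.08 in RNA and at -0.01 and 0.19 without siGFP. The footprints of Rps13 were 1.97, 2.64 and 2.59 CPM in controls against 2.04, 1.94 and 2.01 CPM in knockdown. Those of Rps3a1 were 5.60, 6.24 and 4.49 CPM in controls against 4.26, 5.82 and 5.05 CPM in knockdown, and those of Rps29 4.12, 3.14 and 3.23 CPM in controls against 2.96, 2.99 and 2.73 CPM in knockdown. Here the controls lay closer together, and in Rps29 all knockdown values lay below them. In footprints the log2 differences of the 4 genes stood at -0.14 (Rps3a1), -0.30 (Rps13), -0.30 (Rps29) and -0.12 (Rps16).

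The 3 knockdown lysates were not alike. In siKrr1 D the RNA of 20 of 29 members lay below all 3 controls and 16 were at their lowest of the 6 libraries, shares of 69.0% and 55.2% beside 29.3% and 17.2% of all genes tested. In siKrr1 C 12 members (41.4%) lay below all controls, beside 32.0% of all genes. In siKrr1 A 5 (17.2%) lay below and 6 (20.7%) above them, beside 35.5% and 34.5% of all genes. The median deviation of the 29 genes from the control mean in RNA (log2) was -0.00, -0.05 and -0.30 in knockdown, against -0.01, -0.06 and 0.02 in controls. In footprints it was 0.04, 0.10 and -0.10 in knockdown. Here 14 members (48.3%) lay below all controls in siKrr1 D, beside 26.7% of all genes, and 14 were at their lowest, beside 14.5%. Of the large-subunit genes 37 of 49 lay below all controls in RNA of siKrr1 D. Without siKrr1 D the median log2 difference of the list was -0.02 in RNA and 0.09 in footprints, beside -0.14 and -0.04 with it. Krr1 itself stood at 33.5, 57.5 and 67.0 CPM in RNA and at 31.2, 62.0 and 52.8 CPM in footprints of siKrr1 A, C and D. The part of the Krr1 level in the differences between lysates was not tested. Each lysate may stand for a different siRNA, and siRNA and lysate cannot be told apart.

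**Figure D4:**
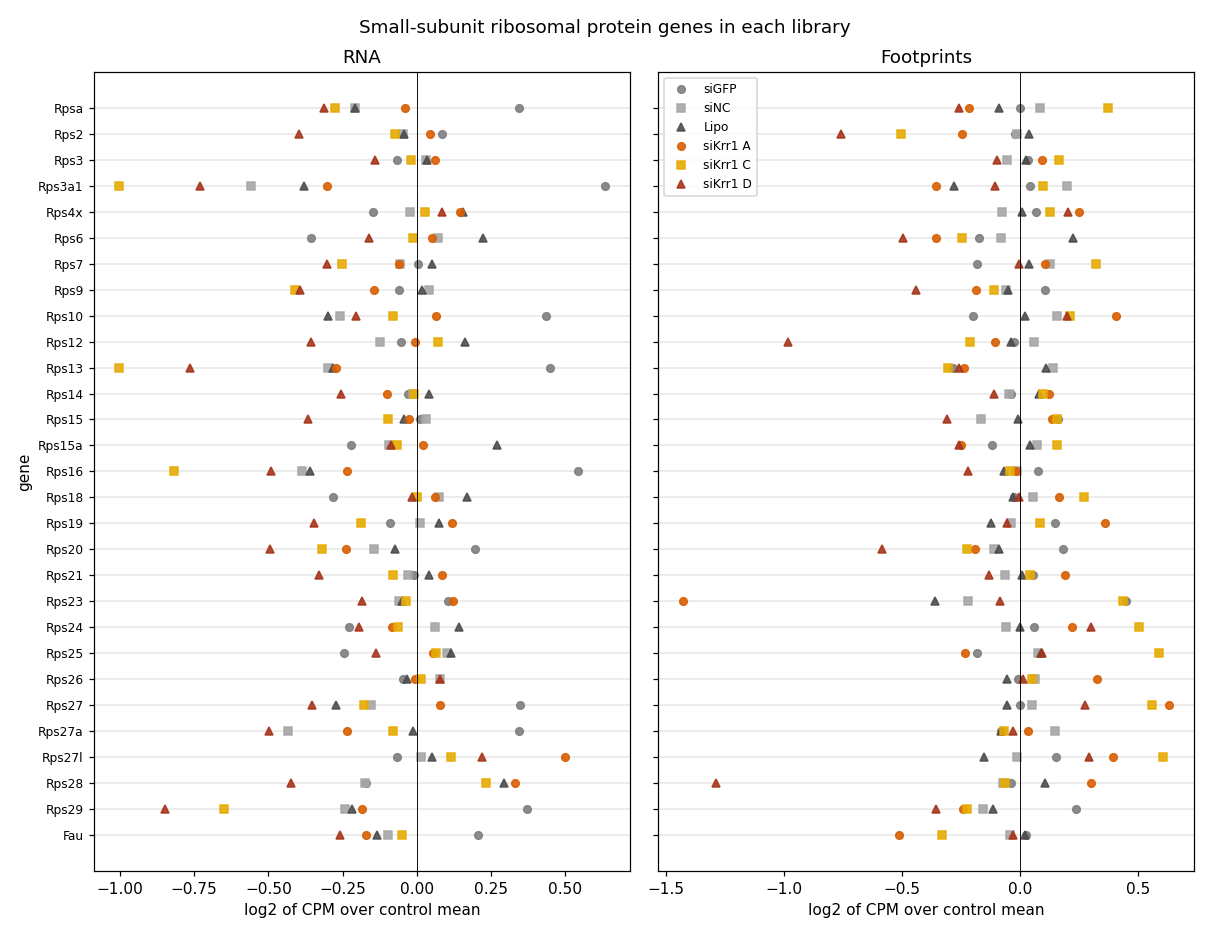
Level of each of the 29 genes in each library as log2 of its CPM over the control mean, for RNA and footprints, with controls in grey and siKrr1 libraries in orange, yellow and red. The red triangles of siKrr1 D lie to the left for most genes in RNA, and the grey circles of siGFP lie far to the right for Rps3a1, Rps16, Rps13 and Rps10.

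By position in the subunit, the 17 body and platform genes had a median log2 difference of -0.14 in RNA and -0.04 in footprints, and the 12 head genes -0.12 and -0.04. The 3 footprint calls are all body or platform genes, a group that holds 17 of the 29 members, and they went in both directions. The grouping was made after values were seen, and no difference between positions was tested. Among the other well-counted body genes Rps14, whose loss underlies the anaemia of a deletion syndrome of the bone marrow, stood at 0.01 ± 0.07, Rps21 at 0.01 ± 0.08 and Rps26, which lines the mRNA exit, at 0.11 ± 0.08 in footprints. Rps4x, an X-linked body gene, had footprints of 137, 124 and 132 CPM in controls against 156, 143 and 151 CPM in knockdown, higher in every knockdown library, and its difference of 0.16 ± 0.06 did not pass the test (edgeR adjusted p = 0.139). Its RNA was 168, 183 and 207 CPM in controls against 206, 189.7 and 197 CPM in knockdown, with overlapping groups. Rps6, the substrate of S6 kinase, had 70 to 120 footprint counts per library, or 3.67, 3.92 and 4.85 CPM in controls against 3.24, 3.50 and 2.94 CPM in knockdown. The knockdown values lay below the controls, and the log2 difference was -0.40 ± 0.19 in footprints (edgeR adjusted p = 0.242) and -0.06 in RNA (-0.21 without siGFP). Rps6 RNA was 13.7, 18.5 and 20.5 CPM in controls against 18.2, 17.4 and 15.7 CPM in knockdown, with siGFP lowest. Rps15a, Rps23 and Rpsa were at -0.13, -0.17 and -0.04 in footprints and -0.06, -0.05 and -0.22 in RNA.

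Among the head genes Rps3 stood at 0.03 ± 0.07 in footprints and -0.05 ± 0.09 in RNA. Rps19, the gene most often mutated in Diamond-Blackfan anaemia, had footprints of 441, 388 and 365 CPM in controls against 511, 422 and 383 CPM in knockdown, where the groups overlapped, and a log2 difference of 0.11 ± 0.10. Rps15, which reaches the decoding site, was at -0.02 and Rps18 at 0.12 in footprints, and -0.17 and -0.00 in RNA. Rps10, like Rps20 a target of Zfp598, had footprints of 34.6, 44.4 and 40.4 CPM in controls against 52.7, 46.0 and 45.7 CPM in knockdown, higher in each knockdown library, with a log2 difference of 0.24 ± 0.10 (edgeR adjusted p = 0.174). Rps12, at the beak of the head, had 40 to 80 footprint counts per library, or 2.69, 2.85 and 2.67 CPM in controls against 2.54, 2.36 and 1.38 CPM in knockdown. The groups did not overlap and siKrr1 D was far below the rest, with a log2 difference of -0.43 ± 0.25 (edgeR adjusted p = 0.358). Its RNA was 17.4, 16.5 and 20.1 CPM in controls against 17.9, 18.9 and 14.1 CPM in knockdown. Rps28, next to the exit site, had 12 to 27 footprint counts, or 0.986, 0.963 and 1.09 CPM in controls against 1.25, 0.97 and 0.415 CPM in knockdown, and stood at -0.27 ± 0.39. Its RNA was 2.35, 2.34 and 3.24 CPM in controls against 3.32, 3.11 and 1.97 CPM in knockdown, so siKrr1 D was lowest in both assays. Rps25, which some viral mRNAs need to recruit the subunit, stood at 0.16 ± 0.18 in footprints. In RNA the differences of Rps12, Rps28 and Rps25 were -0.10, 0.07 and -0.02.

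Rps27a and Fau are made as fusions, Rps27a behind ubiquitin and the Rps30 protein of Fau behind the ubiquitin-like FUBI, which are cut off before assembly. Rps27a RNA was 20.8, 12.1 and 16.2 CPM in controls against 13.9, 15.5 and 11.6 CPM in knockdown, with siNC far below siGFP among the controls, and it stood at -0.27 ± 0.18 in RNA and -0.05 ± 0.13 in footprints. Its footprints were 7.62, 8.92 and 7.60 CPM in controls against 8.23, 7.67 and 7.89 CPM in knockdown. Without siGFP its RNA difference was -0.07. Fau footprints were 8.20, 7.81 and 8.17 CPM in controls against 5.64, 6.41 and 7.89 CPM in knockdown, lower in siKrr1 A and C and within the control range in siKrr1 D, with a difference of -0.30 ± 0.15 (edgeR adjusted p = 0.260). Fau RNA was 29.9, 24.3 and 23.7 CPM in controls against 23.1, 25.1 and 21.7 CPM in knockdown, and its RNA difference was -0.17 ± 0.12.

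The ratio of footprints to RNA in control cells compares the unique footprint reads of a gene with its unique RNA reads, relative to other genes of these libraries. The alignable part of a gene can differ between the assays, so the ratio is not a measure of ribosome density alone. For each control lysate it was taken as log2 of footprint CPM over RNA CPM. The median over the 29 genes was -1.24, against -0.20 for 13109 genes tested in both assays, of which the middle part from the 10th to the 90th percentile ran from -1.44 to 0.98. The 49 large-subunit genes had a median of -1.30. Some members lay far outside the middle part of all genes. Rpsa, the laminin receptor protein at the back of the platform, was at -6.06, -5.42 and -5.59 in siGFP, siNC and Lipo, and 0.0915% of genes were lower. Rps7 (-4.41 ± 0.18), Rps23 (-4.32 ± 0.33) and Rps20 (-3.35 ± 0.03; SD, n = 3) followed. At the other end Rps24 was at 2.46, 2.05 and 2.03, above 98.5% of genes, and Rps19 at 0.21 ± 0.22 was the only other member above 0. In all, 9 of 29 members lay below -2, beside 4.36% of all genes. Members with no pseudogene named after them had a median of -1.19 (8 genes) and those with at least 1 had -1.46 (21 genes). These are not groups without and with copies, because copies under symbols of another form were not counted. Footprints are shorter than the RNA fragments, and the part of fragment length and of unique alignment in these ratios was not tested.

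**Figure D5:**
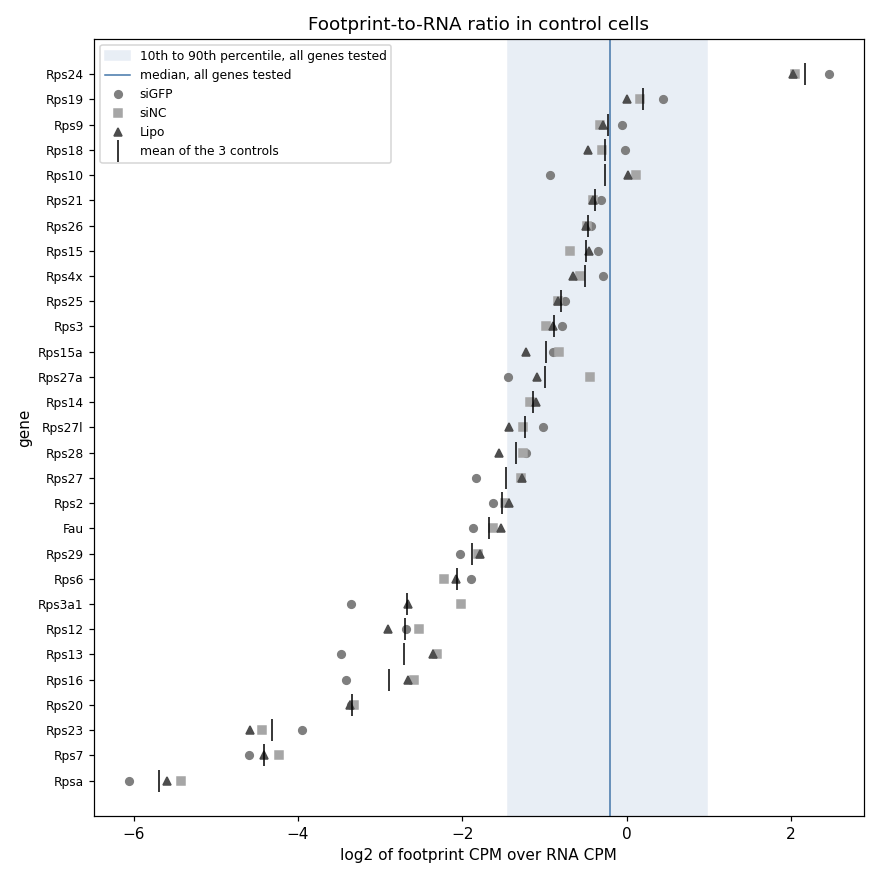
Log2 of footprint CPM over RNA CPM for each of the 29 genes in the 3 control lysates, sorted by the mean (black bar). The shaded band spans the 10th to 90th percentile of all genes tested and the blue line their median. Rpsa, Rps7, Rps23 and Rps20 lie far left of the band and Rps24 lies to its right at a mean of 2.18.

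The change of that ratio after knockdown, translational efficiency, was tested as the interaction of assay and condition over the 12 libraries. With edgeR 0 of 29 members and 0% of 14236 genes were called. At an unadjusted p under 0.05 there were 2 members higher (Rps24 and Rps7) and 0 lower, against 1.59% and 0.78% of all genes, and DESeq2 called 0 of the members and 0.0102% of its genes higher. The log2 difference was above 0 for 22 of 29 members and below 0 for 7, against 50.1% and 49.9% of all genes, with a median of 0.14 beside 0.00. The large-subunit median was 0.05. The median deviation of the list from the control mean was 0.03, 0.26 and 0.14 in knockdown, against 0.04, 0.03 and -0.02 in the controls, so that siKrr1 A lay within the control range. With the lysate as a block edgeR called 0.0351% of all genes higher and 0.00702% lower, and 0 members. The RNA values above enter this ratio, so it is no separate support for them. Without overlap were 5 members higher and 2 lower, against 7.63% and 4.8% of all genes.

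Rps24 had the ratio 2.46, 2.05 and 2.03 in controls against 2.48, 2.74 and 2.67 in knockdown (log2), and the 3 knockdown lysates lay above the highest control, siGFP. Its difference was 0.45 ± 0.14 (edgeR adjusted p = 1.00; 0.245 with the lysate as a block). Rps2 was at -1.62, -1.49 and -1.44 in controls against -1.81, -1.94 and -1.88 in knockdown, below the controls in each lysate, with -0.37 ± 0.18 (edgeR adjusted p = 1.00; 0.0825 with the block). Rps27l stood at 0.14 ± 0.15, a difference that turned to -0.04 without siKrr1 C. Rps27 (0.61 ± 0.31), Rps3a1 (0.52 ± 0.39) and, at the low end, Rps6 (-0.34 ± 0.24) and Rps28 (-0.34 ± 0.48) had larger errors. Without siGFP the value of Rps3a1 was 0.079 and that of Rps27 was 0.41. Rps9 and Rps20, whose groups did not overlap in either assay, stood at 0.06 and 0.01.

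Genes around the 40S proteins were read from lists in the same fits. Of 35 tested small-subunit maturation factors 2 were called higher and 1 lower in footprints: Fcf1, which cuts within the processome, rose by 0.28 ± 0.07, the processome scaffold Utp20 by 0.22 ± 0.06, and the member that fell was Krr1 itself (-1.77 ± 0.18). In RNA Krr1 (-1.58 ± 0.18) was the called one, and the medians of the list lay within 0.01 of 0 in both assays. Of 20 enzymes and partners of 40S proteins (kinases, ubiquitin ligases and deubiquitinases, Gnb2l1 and others) 1 was called in footprints and 0 in RNA (edgeR; medians 0.01 and -0.05). It was Rnf10, the ligase that marks Rps2 and Rps3, whose footprints were 143, 145 and 145 CPM in controls against 93.4, 85.9 and 101 in knockdown, a fall of 0.66 ± 0.06 (log2; edgeR adjusted p = 0.000818). Rnf10 RNA was 248, 237 and 252 CPM in controls against 230, 196 and 199 in knockdown, also without overlap. Its log2 difference in RNA was -0.25 ± 0.08 (edgeR adjusted p = 0.103).

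Of 30 TOP mRNAs and regulators of their translation, Eif3f, a subunit of the initiation factor eIF3, fell in RNA by 0.27 ± 0.07 and Eif4ebp1, an mTOR-controlled repressor of initiation, fell in footprints by 0.23 ± 0.06 on the log2 scale, with list medians of -0.04 and -0.02. Of 49 large-subunit genes 1 was called lower in each assay, the paralog Rpl22l1 (-0.59 ± 0.08 in RNA and -0.56 ± 0.10 in footprints). The large-subunit medians were -0.18 in RNA, with 45 of 49 below 0, and -0.09 in footprints, with 37 below 0. In translational efficiency edgeR called 0 genes of the maturation, partner, TOP and large-subunit lists, both without and with the lysate as a block. The efficiency of Rnf10 stood at -0.41 ± 0.10 (edgeR adjusted p = 1.00) and at -0.41 ± 0.08 with the block (edgeR adjusted p = 0.0835), and its log2 ratios did not overlap between the groups, at -0.79, -0.71 and -0.80 in controls against -1.30, -1.19 and -0.99 in knockdown.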

How the data were processed

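RNA-seq and ribosome profiling of 6 lysates (3 control, 3 siKrr1) were analysed. The authors deposited raw counts per gene symbol. STAR, HTSeq and mm10 are named in the submitters' processing notes, and the summary entries of the files show unique alignments only. Their versions, the annotation and the strand setting were not given in the sources used here. Reads on no feature (31.2 to 33.4% of unique alignments in RNA, 57.5 to 63.3% in footprints) and ambiguous reads (at most 0.206%) stayed out of library sizes and tests.

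All genes were fitted per assay with the edgeR 4.0.16 quasi-likelihood test in R 4.3.3 (TMM factors of 0.984 to 1.04 in RNA and 0.988 to 1.02 in footprints, filterByExpr with a minimum count of 10, Benjamini-Hochberg adjustment over all genes, calls under 0.05). Translational efficiency was the interaction over the 12 libraries, and its per-lysate ratios used a prior count of 0.5. Standard errors come from the F statistic. Alternatives were DESeq2 1.42.0 and its size factors, library totals, TMM without ribosomal protein genes, no filter, each library left out and, for efficiency, the lysate as a block. Pairing rests on the division of each lysate between both assays, per the labels, and on shared column names: deviations from group means over 6117 genes with at least 20 CPM correlated within a lysate with r from 0.265 to 0.713, above each other lysate of the group. No 2 libraries of a group and assay were duplicates (chi-square per degree of freedom 4.03 to 28.7). On simulated counts the fits recovered 98.0% of 2-fold and 78.0% of 1.5-fold changes in RNA (14034 genes), 99.0% and 89.0% in footprints (13327 genes) and 91.0% and 32.0% in efficiency (14198 genes). Unchanged genes gave 4, 8 and 4 false calls. The changed genes were drawn above a minimum of summed footprint counts. All genes of an assay had the same dispersion, without lysate effects. These rates need not hold for members with few counts or a wide spread between controls.

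The members, lists and comparisons were chosen with earlier results of these data known. Values in every library are given for the called members, the 3 with the largest and the 3 with the smallest difference per comparison, the paralogs Rps27 and Rps27l and the fusions Rps27a and Fau, by rule, and for some others chosen after their values were seen; the grouping by position was made after values were seen. Coordinates, pseudogene names and sequences are from RefSeq (GRCm38.p6), and all 29 symbols matched.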

Additional observations from a re-analysis of the deposited data

How the results depend on the processing

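The count of members called in RNA was 0 and became 3 with DESeq2 and 3 with no filter on low counts (Rps9, Rps13 and Rps20 in both), and ran from 0 to 1 with a library left out (Rps9 without siKrr1 A). In footprints the count of 3 became 5 with DESeq2 and 5 with no filter, where Rps9 and Rps20 joined, and ran from 0 to 4 with a library left out: 1 without siGFP, 0 without siNC or Lipo, 3 without siKrr1 A or D and 4 without siKrr1 C, where Rps9 joined. The 3 other scalings left the same 3 genes called. All counts in translational efficiency stayed at 0 over its 12 alternatives, with the lysate as a replicate block at 0 too, and the block changed no call of a member. Over all genes it moved the count from 0 to 5 higher and 1 lower. Among members with at least 100 counts in every library, a limit chosen after the data were seen, the counts were 0 in RNA and 3 in footprints, and the median footprint difference of the list turned to 0.02. The median was -0.18 without siKrr1 A in RNA. Of 646 alternative values of 57 results of single members, 601 kept direction and side of the threshold, 8 lost a call, 12 gained one and 25 changed sign, the last all with a library left out and none of a called result. With a library left out, the RNA difference ran over -0.0019 to 0.15 for Rps4x, -0.21 to 0.072 for Rps6, -0.21 to 0.19 for Rps10, -0.19 to 0.043 for Rps12, -0.29 to 0.050 for Rps27 and -0.078 to 0.29 for Rps28, and the footprint difference over -0.27 to 0.087 for Rpsa, -0.094 to 0.030 for Rps27a and -0.61 to 0.10 for Rps28. The difference in efficiency ran over -0.095 to 0.34 for Rpsa, -0.059 to 0.15 for Rps9, -0.039 to 0.52 for Rps10, -0.046 to 0.58 for Rps13, -0.032 to 0.047 for Rps20, -0.026 to 0.47 for Rps27a and -0.036 to 0.28 for Rps27l. The difference in the Rps27l to Rps27 ratio of footprints ran over -0.10 to 0.036. The median footprint-to-RNA ratio of the members in controls was -1.03 with TMM-scaled CPM and ran over -1.28 to -1.16 with a control left out. The cause of these changes was not tested. A fit with a library left out also has fewer samples. Counts of under 100 per library limit Rps28 in RNA and 9 members in footprints.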

Other observations

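The tables hold rows for 3 pseudogenes named after members. Rps15a-ps6 was at 22.2, 21.7 and 27.3 CPM of RNA in controls against 24.6, 23.0 and 33.7 in knockdown, highest in siKrr1 D, where most members were lowest. Its footprints were at 0.801 to 1.07 CPM, from 19 to 31 counts per library. Rps19-ps3 had 11 to 35 RNA counts and 4 to 19 footprint counts per library, with footprints of 0.179, 0.25 and 0.243 CPM in controls against 0.694, 0.422 and 0.657 in knockdown, a log2 difference of 1.34 ± 0.43 (edgeR adjusted p = 0.0929). Rps15a-ps4, also known as Lethe, was at 1.09 to 1.66 CPM of RNA with a difference of -0.13 ± 0.26. Of the 3 pseudogenes 0 passed the test with edgeR, and Rps15a-ps4, with 5 to 12 footprint counts per library, was not tested in footprints.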
